A study of Mus musculus with 20 samples.

Results

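Sphingosine-1-phosphate (S1P) is a signalling lipid, and the 10 genes described here make it, break it down, export it or receive it. They are the ceramidase genes Asah1 and Asah2, the sphingosine kinase genes Sphk1 and Sphk2, the lyase gene Sgpl1, the phosphatase genes Sgpp1 and Sgpp2, the exporter gene Spns2 and the receptor genes S1pr2 and S1pr3. They were chosen by name, as the rows with these symbols, and make up 10 of the 24062 genes in the count tables. All 10 passed the filter on low counts in every comparison. The remaining receptor genes S1pr1, S1pr4 and S1pr5 are given beside them.

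Poly(A) RNA came from male C57BL/6N mice fed chow. The tissues were the pituitary and inguinal white adipose tissue, a subcutaneous fat depot abbreviated iWAT. Each tissue has 5 libraries labelled wild type (WT) and 5 labelled KLF14 KO, in a study of mice with a germline deletion of the transcription factor gene Klf14. No Cre driver or transgene is named, and all groups share strain, sex and diet. Mice labelled WT were 18 weeks old (mouse 56), 19 weeks (48 and 49) or 21 weeks (33 and 34). Mice labelled KO were 19 weeks old (mouse 50) or 21 weeks (31, 32, 35 and 66), so the mean age was 19.6 weeks in the WT-labelled group and 20.6 weeks in the KO-labelled group. The mouse numbers come from the sample titles. The labels do not state that a number is an animal, or that each library of a group had its own animal, so p-values here speak for the spread between libraries, which may be technical.

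Ceramidases release sphingosine from ceramide, Asah1 in the lysosome and Asah2 as the neutral enzyme. Sphingosine kinases phosphorylate sphingosine to S1P, the phosphatases Sgpp1 and Sgpp2 turn it back into sphingosine, and the lyase Sgpl1 cleaves it irreversibly, the exit from the sphingolipid pathway. Spns2 exports S1P from cells, among them endothelium, and a family of G protein-coupled receptors reads it outside the cell. S1P levels are high in blood and lymph and low inside lymphoid tissue, a gradient that guides lymphocytes out of lymph nodes. KLF14 has been reported as an activator of SPHK1 transcription, and KLF factors bind GC-rich and CACCC sequences.

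Promoter windows of Sphk1, the reported KLF14 target, and of Sgpl1, the only member that passed the test between genotype labels, are printed here because the data bear on both. The windows run from 250 bases before to 50 bases after the RefSeq transcript start (GRCm38.p6), read 5′ to 3′ on the gene's strand. Sphk1 has 5 windows and Sgpl1 has 1, and for each member only the window nearest the counted gene start was read. Sphk1 lies at chr11:116531661-116531960 on the plus strand, and Sgpl1 at chr10:61147635-61147934 on the minus strand. Capitals mark matches on either strand to the GC box, spelled GGGCGG, or to the box spelled CACCC.
Sphk1: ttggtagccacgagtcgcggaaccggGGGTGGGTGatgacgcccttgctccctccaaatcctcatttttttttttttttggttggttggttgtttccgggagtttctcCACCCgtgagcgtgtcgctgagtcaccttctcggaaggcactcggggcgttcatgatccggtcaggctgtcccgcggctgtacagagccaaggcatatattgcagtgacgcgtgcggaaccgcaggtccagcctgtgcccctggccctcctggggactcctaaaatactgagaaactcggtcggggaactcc
Sgpl1: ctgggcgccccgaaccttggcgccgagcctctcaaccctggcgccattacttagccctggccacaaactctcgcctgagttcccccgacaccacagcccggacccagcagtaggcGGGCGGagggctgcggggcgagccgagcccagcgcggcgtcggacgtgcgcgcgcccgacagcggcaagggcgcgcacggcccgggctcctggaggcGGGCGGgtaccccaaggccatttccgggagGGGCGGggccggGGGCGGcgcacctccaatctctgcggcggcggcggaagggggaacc
The printed Sphk1 window held 0 GC boxes and 3 CACCC boxes, of which the first pair overlaps on the opposite strand. Of all 32851 windows of this length, 9.35% held as many CACCC boxes. The Sgpl1 window held 4 GC boxes and 0 CACCC boxes, and 5.49% of windows held as many GC boxes. Its GC content was 75.3%, against a median of 52.7% over all windows. Of the 9 members with a window, 5 held at least 1 GC box (35.7% of all windows did) and 5 held at least 1 CACCC box (57.5% of all windows). The transcript start of the Spns2 window lies 14893 bases from the counted Spns2 start. These matches describe letters in the windows and are not measured binding sites.

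The deposited total counts ranged from 13.6 to 17.6 M (mega-counts) in the pituitary and from 14.8 to 18.7 M in iWAT. The tissue labels fitted their defining genes: Adipoq, the adipocyte hormone adiponectin, had a median of 1336 CPM (counts scaled to a library of 1 M counts) in iWAT and 0 in the pituitary, and growth hormone Gh had medians of 96259 CPM in the pituitary and 0.348 CPM in iWAT. The iWAT library of KO-labelled mouse 32 stood apart, with 124 CPM of summed pituitary hormone markers against 0.936 to 2.94 CPM in the other 9, and Gh reached 94.3 CPM there. The targeted gene went against its label in the pituitary. Klf14 counts in the pituitary were 679, 572, 496, 417 and 463 in KO-labelled mice 31, 32, 35, 50 and 66, and 304, 196, 260, 241 and 268 in WT-labelled mice 33, 34, 48, 49 and 56. Klf14 was therefore higher in every pituitary library labelled KO, with means of 32.4 and 16.1 CPM (log2 fold change 1.0, SE 0.086, edgeR adjusted p = 7.645e-05). In iWAT its counts were 33, 20, 8, 20 and 46 in KO-labelled mice 31, 32, 35, 50 and 66, and 49, 5, 1, 12 and 5 in WT-labelled mice 33, 34, 48, 49 and 56. These groups overlapped, and the highest library was labelled WT (edgeR adjusted p = 1). The labels used here do not say which stretch of the gene was deleted, so KO and WT here always name the label of a library. The iWAT library of KO-labelled mouse 50 stood apart in its lymph node B and T cell markers, with a summed level of 14.9 CPM against a median of 757 CPM in its group.

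Levels compared between genes are in TPM, a share of all transcripts that divides each count by the gene's length. In the pituitary Asah1 led at 97.2 TPM ± 3.96 (SD over all 10 libraries), followed by Sgpp1 at 44.7 ± 3.81 and Asah2 at 36.0 ± 1.25, and each of these was above the next in all libraries. Sgpl1 (30.2 ± 2.94) and Sphk2 (26.5 ± 4.49) overlapped in range. Below them came Sgpp2 at 16.2 ± 1.1 and S1pr3 at 8.81 ± 1.48. S1pr2 (3.56 ± 0.712) and Spns2 (2.30 ± 0.519) overlapped with each other. Sphk1 was the lowest member at 0.697 ± 0.205, and S1pr4 at 0.873 and S1pr5 at 0.365 were not separated from it.

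In iWAT the order was headed by Sgpl1, at 162 TPM ± 37.8, which overlapped with S1pr1 (158 ± 21.2, no member), whose range in turn overlapped with Asah1 (130 ± 16.7). Sgpp1 followed at 46.5 ± 6.14, and its range overlapped with those of S1pr4 (40.5 ± 23.1, no member) and Spns2. Spns2 (36.6 ± 8.40), Asah2 (28.8 ± 4.08), Sphk2 (23.6 ± 4.37), S1pr3 (16.6 ± 3.15), S1pr2 (11.5 ± 3.49) and Sgpp2 (8.52 ± 3.67) formed a chain in which no member was separated from the next. Sphk1 was again the lowest member at 2.66 ± 0.938, and its range overlapped with that of Sgpp2. Most transcript of the kinase pair thus came from Sphk2, with 97.4% of the summed kinase TPM in the pituitary and 89.8% in iWAT. Sgpp1 made up 73.3% and 85.1% of the phosphatase TPM, and Asah1 72.9% and 81.8% of the TPM of the member ceramidases.

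**Figure D1:**
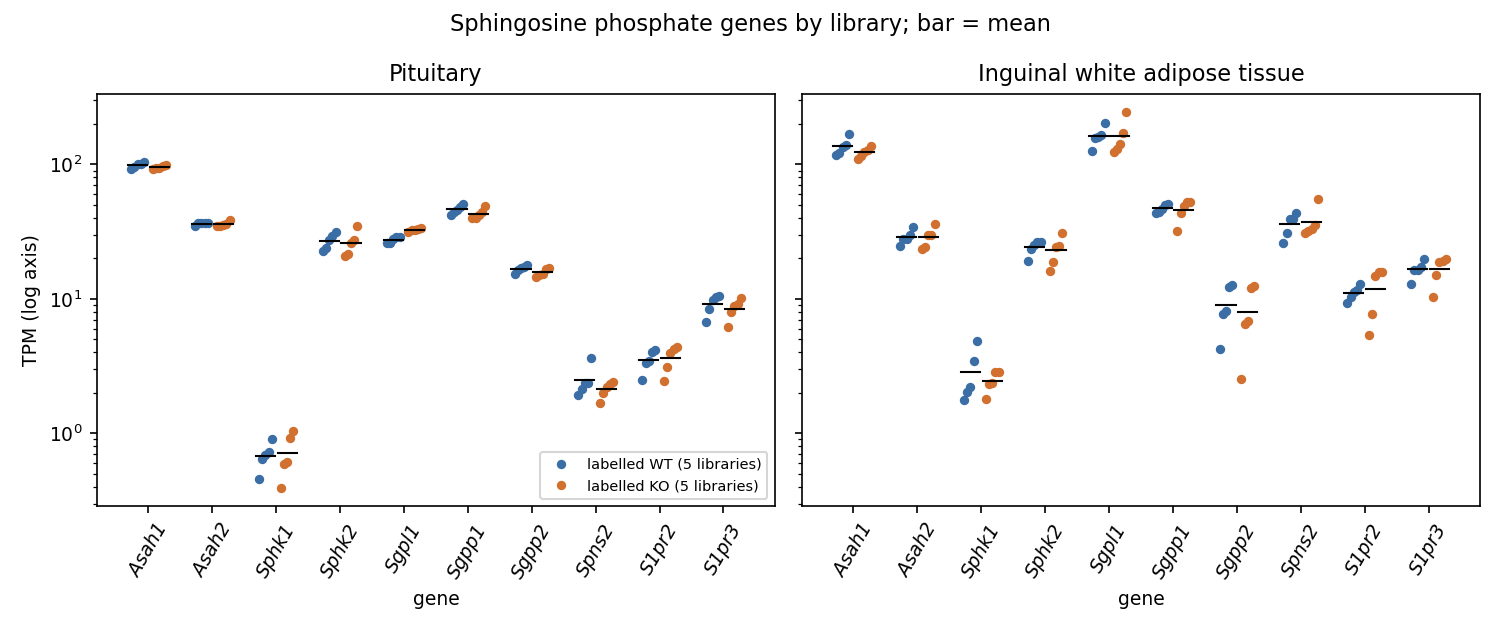
Levels of the 10 genes in TPM (log axis) in the pituitary (left) and iWAT (right). Each point is 1 library, coloured by genotype label, and the bar is the mean of 5 libraries. Sphk1 is the lowest member in both tissues, and Sgpl1 is the highest in iWAT but the fourth in the pituitary.

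The first comparison asked whether these genes differed between genotype labels in the pituitary. Sgpl1, the S1P lyase, rose in the libraries labelled KO, and the other 9 members did not pass the test. The gene lies at chr10:61098642-61147665 (mm10, minus strand) and overlaps no other counted gene. Its level was 59.6, 66.1, 64.9, 64.8 and 61.5 CPM in KO-labelled mice 31, 32, 35, 50 and 66. In WT-labelled mice 33, 34, 48, 49 and 56 it was 52.1, 51.5, 55.2, 49.8 and 52.9 CPM. Every library labelled KO was above every library labelled WT, with a gap between 55.2 and 59.6 CPM.

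The group means were 63.4 CPM ± 2.71 and 52.3 CPM ± 2.0 (SD, n = 5 each). The log2 fold change was 0.27 (SE 0.048, edgeR adjusted p = 0.01898), a 1.21-fold rise with a 95% interval from 1.12 to 1.29. The raw counts behind it were 877 to 1124 in the libraries labelled KO and 726 to 931 in those labelled WT. Over all 16389 genes tested, 0.415% were called higher and 0.549% were called in either direction. Groups that did not overlap, with KO higher, were found for 1.91% of genes, and Sgpl1 ranked 50 by p. In bulk tissue a change in the number of cells of a type and a change in RNA per cell cannot be told apart.

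The call for Sgpl1 was lost with age as a covariate (log2 fold change 0.28, edgeR adjusted p = 0.052), in mice of 21 weeks only (0.28, adjusted p = 0.4422) and in 1 fit over all 20 libraries, which shares the spread of iWAT (0.27, adjusted p = 1). It was also lost without KO-labelled mouse 32 (adjusted p = 0.07324), WT-labelled mouse 34 (0.05526), WT-labelled mouse 49 (0.06296) or WT-labelled mouse 56 (0.05551), while the log2 fold change stayed between 0.25 and 0.29 over the 10 fits that left out a mouse. All 8 macrophage markers and all 6 tested blood markers had positive log2 fold changes in the same comparison, and none passed. Of these, 0 had an unadjusted edgeR p under 0.05. Of 9 pituitary hormone cell markers 5 were positive and 4 negative, and 3 had such a p. Of 4 tested epithelial markers 1 was positive and 3 negative, and 2 had such a p. None of those passed either. The summed macrophage level was 85.5 to 259 CPM in the libraries labelled KO, with the highest value in mouse 50, and 91.1 to 109 CPM in those labelled WT. No macrophage marker was at 0 throughout. Over the 10 pituitary libraries Sgpl1 passed with no marker list. The largest Pearson's r was with pituitary hormone cell markers (r = 0.567, permutation p = 0.08387, adjusted 0.4553). With macrophage markers r was 0.469 (permutation p = 0.1383, adjusted 0.5492). Without KO-labelled mouse 50 the Sgpl1 log2 fold change was 0.26 (edgeR adjusted p = 0.03756). Neither the correlations over 10 libraries nor this fit can separate cell make-up from RNA per cell. The part of any cell type in the Sgpl1 difference was not tested.

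**Figure D2:**
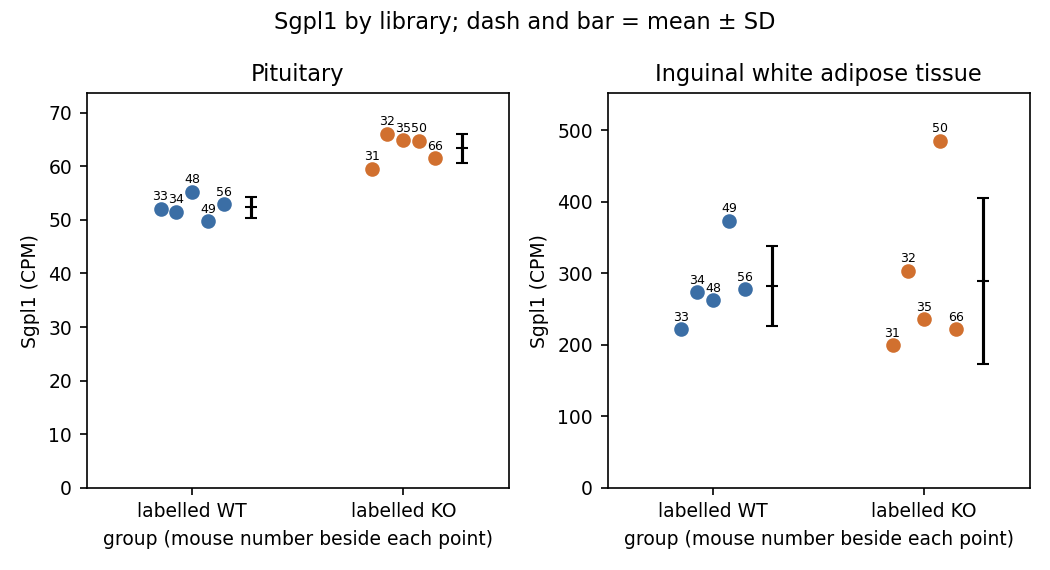
Sgpl1 level in CPM per library in the pituitary (left) and iWAT (right), with the mouse number beside each point and the mean ± SD of 5 libraries beside each group. The pituitary groups do not overlap (49.8 to 55.2 against 59.6 to 66.1 CPM), while in iWAT they do, and KO-labelled mouse 50 is the highest at 485 CPM.

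The kinases did not differ detectably in the pituitary. Sphk1, the inducible cytosolic kinase, had counts of only 11, 17, 7, 16 and 10 in KO-labelled mice 31, 32, 35, 50 and 66, and of 15, 11, 12, 7 and 12 in WT-labelled mice 33, 34, 48, 49 and 56. The groups overlapped completely (0.770 CPM ± 0.308 and 0.718 CPM ± 0.151, SD, n = 5 each). The log2 fold change of 0.07 (edgeR adjusted p = 0.9577) had a 95% interval from 0.674-fold to 1.63-fold, so a change of any size within this range remains possible. Sphk2, found in the nucleus and mitochondria, was at 63.5, 42.6, 55.5, 53.5 and 38.8 CPM in KO-labelled mice 31, 32, 35, 50 and 66. In WT-labelled mice 33, 34, 48, 49 and 56 it was at 53.0, 45.0, 54.7, 45.9 and 58.8 CPM. The highest and the lowest Sphk2 library were both labelled KO, and the 95% interval of the difference ran from 0.806-fold to 1.2-fold (edgeR adjusted p = 0.9625).

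The ceramidases and phosphatases did not pass either. Asah2 was at 77.0 to 84.6 CPM in the libraries labelled WT and 77.3 to 83.2 CPM in those labelled KO, with an interval from 0.941-fold to 1.07-fold (edgeR adjusted p = 0.967). Asah1 was at 91.1 to 112 and 93.0 to 109 CPM, with an interval from 0.890-fold to 1.07-fold (adjusted p = 0.8908). These ranges lie almost on top of each other. For Sgpp1 the interval was 0.835-fold to 1.06-fold (edgeR adjusted p = 0.7638) and for Sgpp2 0.856-fold to 1.07-fold (adjusted p = 0.8065).

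The exporter and the receptors did not differ detectably. Spns2 was at 3.64, 2.70, 3.65, 3.91 and 3.04 CPM in KO-labelled mice 31, 32, 35, 50 and 66, and at 3.18, 3.84, 5.93, 3.02 and 3.61 CPM in WT-labelled mice 33, 34, 48, 49 and 56. WT-labelled mouse 48 was above all others, and the log2 fold change was -0.22 (SE 0.19, edgeR adjusted p = 0.7386). S1pr2 (log2 fold change 0.07, edgeR adjusted p = 0.9116) and S1pr3 (-0.10, adjusted p = 0.8163) overlapped between the groups. S1pr1, which guides lymphocyte exit, was at 10.5 to 19.7 CPM in the libraries labelled KO and 10.2 to 18.1 CPM in those labelled WT (log2 fold change 0.25, edgeR adjusted p = 0.6645). S1pr5 was under the filter on low counts, with 0.429 CPM ± 0.121 and 0.415 CPM ± 0.162 (SD, n = 5 each). An exact two-sided permutation test on CPM without TMM scaling gave p = 0.9206.

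The median log2 fold change of the members was -0.03 against 0.0036 over all genes tested, with 4 positive and 6 negative. Other genes of the pathway were read from lists. Of 9 other S1P handling genes (carriers, exporters, lipid phosphatases and the aldehyde step) 0 passed, and 1 had an unadjusted p under 0.05. Of 15 tested ceramide synthesis genes 0 passed and 2 had such a p. Among 15 genes of sphingomyelin and glycosphingolipid turnover and 2 other ceramidases, 0 passed in edgeR's test, and 0 had an unadjusted p under 0.05. Over all genes 10.9% had an unadjusted p under 0.05.

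In iWAT the question was the same, and 0 of the 10 members passed, as did 0% of the 16105 genes tested. At an unadjusted p under 0.05 edgeR gave 89 genes (0.553%) and 0 members, and DESeq2 called 0 genes at its adjusted threshold. The common coefficient of variation between libraries was 0.307 in iWAT against 0.101 in the pituitary. Sgpl1 was at 199, 303, 236, 485 and 222 CPM in KO-labelled mice 31, 32, 35, 50 and 66, and at 222, 274, 262, 374 and 278 CPM in WT-labelled mice 33, 34, 48, 49 and 56. KO-labelled mouse 50 was the highest library and KO-labelled mouse 31 the lowest, so the label groups overlapped. Its log2 fold change of 0.04 (SE 0.25) had a 95% interval from 0.703-fold to 1.5-fold, which includes the 1.21-fold found in the pituitary. Without KO-labelled mouse 50 it turned to -0.23 (SE 0.17, edgeR adjusted p = 0.9999).

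Sphk1 counts in iWAT were 41, 32, 44, 28 and 46 in KO-labelled mice 31, 32, 35, 50 and 66, and 35, 73, 52, 31 and 25 in WT-labelled mice 33, 34, 48, 49 and 56. The highest and the lowest library were both labelled WT. The log2 fold change was -0.22 (SE 0.28, edgeR adjusted p = 1), with an interval from 0.555-fold to 1.33-fold. Log2 fold changes of the other members ranged from -0.17 for Sgpp2 to 0.09 for S1pr2. Spns2 was at 74.0, 48.1, 44.1, 50.4 and 49.9 CPM in KO-labelled mice 31, 32, 35, 50 and 66, where mouse 31 was above every other iWAT library, and at 39.8 to 59.2 CPM in the libraries labelled WT.

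A contrast over the 4 groups in 1 fit of 20 libraries tested whether the label effect was unequal in the tissues. No member passed, as did 0% of 17731 genes in edgeR's test (2.41% had an unadjusted p under 0.05, with 0 members among them). For Sgpl1 the effect in iWAT minus that in the pituitary was -0.20 on the log2 scale (SE 0.26, 95% interval -0.75 to 0.36). Without KO-labelled mouse 50 this value was -0.50 (SE 0.18, edgeR adjusted p = 0.9999). For Spns2 it was 0.32 (SE 0.25), and for Sphk1 -0.27 (SE 0.41). The call for Sgpl1 in the pituitary and its absence in iWAT are therefore not shown to differ.

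**Figure D3:**
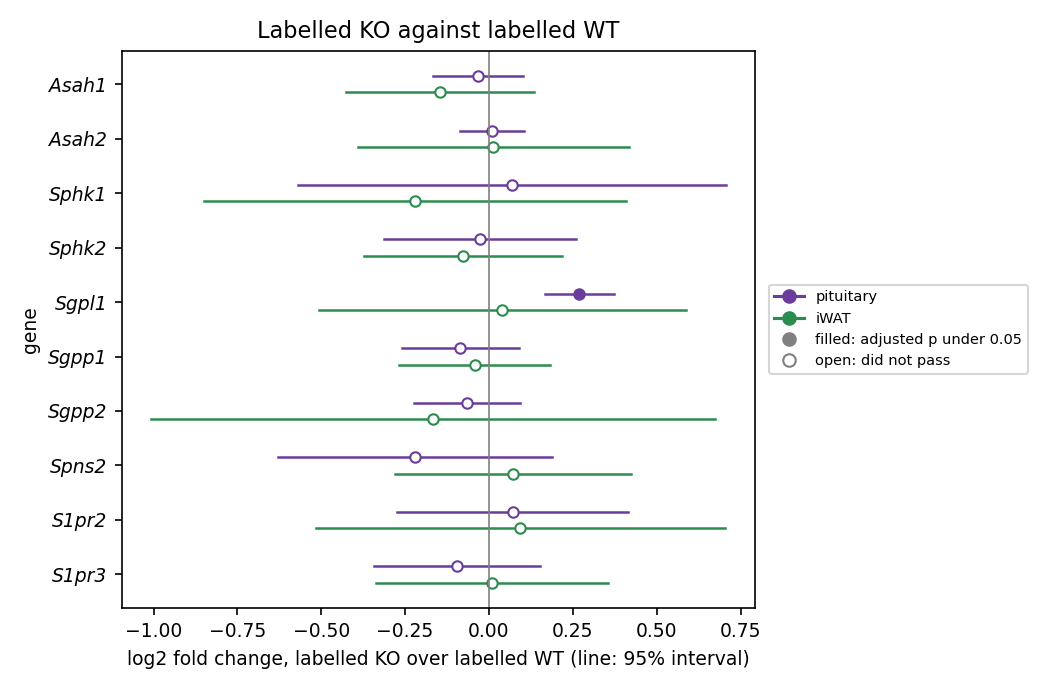
Log2 fold change of labelled KO over labelled WT for the 10 genes in the pituitary and iWAT, with 95% intervals. Filled points passed the adjusted p threshold of 0.05. Sgpl1 in the pituitary (0.27) is the only filled point, and the intervals are widest for Sphk1 and for Sgpp2 in iWAT.

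The tissues were compared within each genotype label, and these fits share their libraries with the label comparisons above. In the fit of libraries labelled WT, 9 of 10 members were called, with 3 higher and 6 lower in the pituitary than in iWAT. Over 17023 genes 79.1% were called, 40.2% higher and 38.9% lower, so the share of members called is near the background. The libraries of the tissues did not overlap for 7 members, against 69.3% of all genes. In the fit of libraries labelled KO, 8 of 10 members were called, 2 higher and 6 lower, against 75.1% of 16905 genes (37.3% higher and 37.8% lower). No overlap was seen for 6 members and for 63.6% of all genes. Without KO-labelled mouse 50 the KO-labelled fit again called 8 members, and without KO-labelled mouse 32 it called 6. In both fits, with the same direction, 8 members and 71.8% of the genes tested in both were called. The median log2 fold change of the members was -0.54 in the WT-labelled fit and -0.57 in the KO-labelled fit, against 0.012 and -0.024 over all genes tested.

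Spns2 showed the largest difference among the members. In libraries labelled WT it was at 3.18, 3.84, 5.93, 3.02 and 3.61 CPM in the pituitary of mice 33, 34, 48, 49 and 56 and at 45.2, 55.5, 59.2, 39.8 and 54.0 CPM in the iWAT libraries of the same numbers. Each iWAT library was far above each pituitary library. Spns2 was 13-fold lower in the pituitary (log2 fold change -3.70, SE 0.19, edgeR adjusted p = 1.423e-08) and 16.4-fold lower in the KO-labelled fit (-4.03, SE 0.18, adjusted p = 9.726e-09). The 9 endothelial markers moved the same way, with 8 lower in the pituitary in each fit. Their summed level was 291 to 397 CPM in the WT-labelled pituitary and 1091 to 1480 CPM in WT-labelled iWAT. Within iWAT the correlation of Spns2 with them did not pass (Pearson's r = -0.559, permutation p = 0.09158, adjusted 0.4579). All 8 macrophage, 9 lymph node B and T cell, 6 preadipocyte and fibroblast and 7 adipocyte markers were also lower in the WT-labelled fit. The 9 pituitary hormone cell markers were higher there. The part of any cell type in the Spns2 difference was not tested.

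Sgpl1 was 5.40-fold lower in the pituitary in the WT-labelled fit (log2 fold change -2.43, SE 0.12, edgeR adjusted p = 8.59e-09) and 4.76-fold lower in the KO-labelled fit (-2.25, SE 0.23, adjusted p = 7.042e-06). Its 49.8 to 66.1 CPM over all pituitary libraries lay far below the 199 to 485 CPM in iWAT. Sphk1 was lower as well, by 1.93 on the log2 scale in the WT-labelled fit (3.8-fold, SE 0.31, edgeR adjusted p = 0.0001446) and 3.19-fold lower in the KO-labelled fit (adjusted p = 0.0001283). The other kinase went the opposite way. Sphk2 was 1.22-fold higher in the pituitary in both fits, with a call in the WT-labelled fit (edgeR adjusted p = 0.01758) but not in the KO-labelled fit (adjusted p = 0.133), and its libraries overlapped between tissues in both. The WT-labelled call was lost without WT-labelled mouse 56 (edgeR adjusted p = 0.08453) and in 1 fit over all 20 libraries (adjusted p = 0.0895). Sphk2 shares exon bases with the gene Dbp, described below. If spread evenly, Dbp reads in the shared stretch would make up a median of 22.6% of the Sphk2 count in the pituitary and 10.8% in iWAT. The part of this overlap in the Sphk2 difference was not tested.

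The phosphatases differed from each other. Sgpp2 was at 29.7, 34.3, 29.6, 31.0 and 29.2 CPM in the pituitary of WT-labelled mice 33, 34, 48, 49 and 56 and at 13.9, 12.9, 20.2, 7.62 and 19.7 CPM in iWAT. All pituitary libraries lay above all iWAT libraries, a 2.06-fold difference (SE 0.22 on the log2 scale, edgeR adjusted p = 0.001007). In the KO-labelled fit Sgpp2 was 2.15-fold higher in the pituitary (edgeR adjusted p = 0.006967). Sgpp1, the more abundant phosphatase, did not pass in either fit, with log2 fold changes of 0.11 (95% interval -0.07 to 0.28, edgeR adjusted p = 0.243) and 0.02 (-0.21 to 0.26, adjusted p = 0.8527).

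The ceramidases moved in opposite directions by small amounts. Asah1 was 1.27-fold lower in the pituitary in the WT-labelled fit (edgeR adjusted p = 0.01828) and 1.21-fold lower in the KO-labelled fit (adjusted p = 0.01059), with libraries that overlapped. Those calls were lost without WT-labelled mouse 33 (edgeR adjusted p = 0.08202) and without KO-labelled mouse 32 (adjusted p = 0.06374). Asah2 was 1.36-fold higher in the WT-labelled fit (edgeR adjusted p = 0.001779), where the tissues did not overlap, and 1.32-fold higher in the KO-labelled fit (adjusted p = 0.04121). The KO-labelled call was lost without KO-labelled mouse 31, 32, 35 or 66 (edgeR adjusted p from 0.09545 to 0.1454). Outside the members, the Golgi ceramidase gene Acer2 was lower too in the WT-labelled fit (log2 fold change -2.04, SE 0.27, edgeR adjusted p = 2.865e-05).

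All tested receptors were lower in the pituitary. S1pr2 was at 5.10, 4.52, 4.69, 3.22 and 5.04 CPM in the pituitary of WT-labelled mice 33, 34, 48, 49 and 56 and at 14.0, 12.3, 12.6, 16.2 and 10.6 CPM in iWAT, with no overlap. It was 2.92-fold lower in the WT-labelled fit (edgeR adjusted p = 2.594e-06) and 3.04-fold lower in the KO-labelled fit (adjusted p = 0.0003991). S1pr3 was 1.66-fold lower (edgeR adjusted p = 0.000293) and 1.83-fold lower (adjusted p = 0.0003156). S1pr1 and S1pr4, outside the members, differed by more. S1pr1 was 15.3-fold lower in the WT-labelled fit (13.1 against 199 CPM, edgeR adjusted p = 1.181e-09) and S1pr4, a receptor of lymphocytes, 46.3-fold lower (0.920 against 43.0 CPM, adjusted p = 2.278e-07). The 9 lymph node B and T cell markers were all lower in the pituitary in the WT-labelled fit, with summed levels of 10.7 to 13.6 CPM against 279 to 1119 CPM, and their part in the S1pr4 difference was not tested. S1pr5 was at 0.415 against 0.643 CPM in the libraries labelled WT, where it was under the filter (exact two-sided permutation p = 0.254 on CPM without TMM scaling). It was 1.91-fold lower in the KO-labelled fit (edgeR adjusted p = 0.02537), on counts of only 5 to 11 in the pituitary and 7 to 20 in iWAT. Its KO-labelled libraries overlapped between tissues (0.294 to 0.598 against 0.496 to 1.43 CPM), with mouse 50 highest. This call was not checked by leaving out a mouse.

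The make-up of the receptor family differed accordingly. S1pr3 held 37.2% ± 5.97 of the summed receptor TPM in the pituitary and 7.43% ± 1.54 in iWAT (SD over 10 libraries each), and the ranges did not overlap. S1pr2 held 14.9% ± 2.04 and 5.20% ± 1.88. S1pr1 was the leading receptor in both tissues by mean, with 42.7% ± 7.47 in the pituitary, where it overlapped with S1pr3, and 70.3% ± 7.29 in iWAT. S1pr4 held 3.69% in the pituitary and 16.8% in iWAT, where its share fell to 2.45% in the lowest library. That library was KO-labelled mouse 50 (S1pr4 at 4.40 TPM), whose lymph node B and T cell markers summed to only 14.9 CPM. The part of lymph node cells in the receptor shares was not tested.

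**Figure D4:**
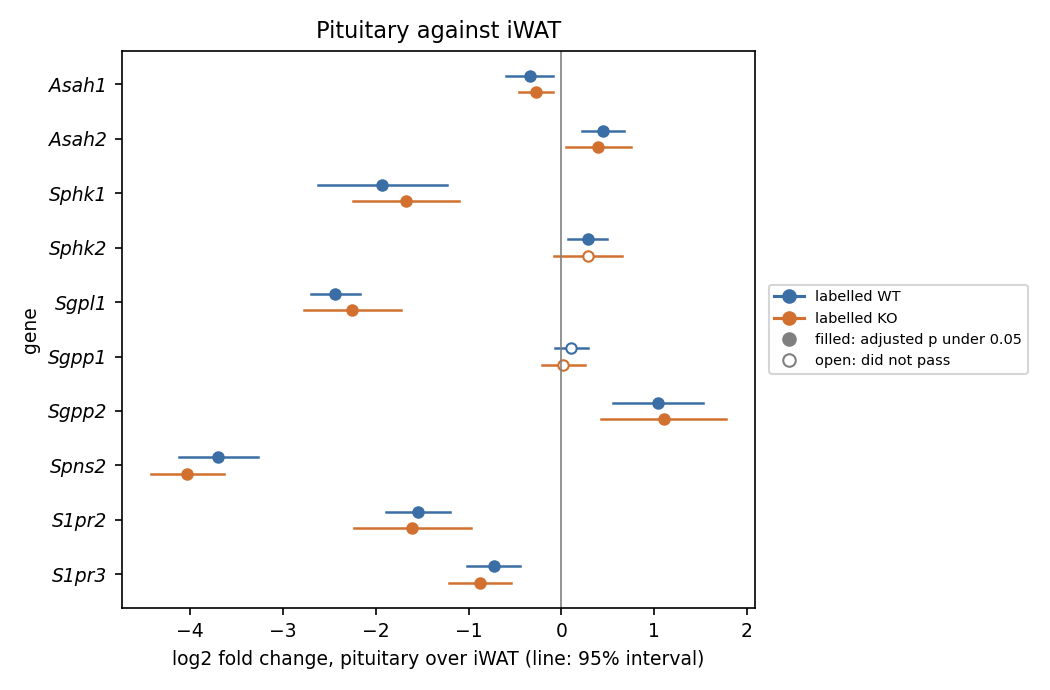
Log2 fold change of pituitary over iWAT for the 10 genes in the libraries labelled WT and labelled KO, with 95% intervals. Filled points passed the adjusted p threshold of 0.05. Spns2 (-3.70 and -4.03) and Sgpl1 (-2.43 and -2.25) lie farthest to the left, and Sgpp2 (1.04 and 1.1) farthest to the right.

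Around the members the shares called are to be read against the 79.1% of all genes called in the WT-labelled fit and the 75.1% in the KO-labelled fit. In the lists, 6 of 15 tested ceramide synthesis genes were higher and 8 lower in the pituitary in the WT-labelled fit, and 7 and 8 in the KO-labelled fit. The ceramide synthase genes Cers6 (log2 fold change 1.25, SE 0.15) and Cers1 (1.24, SE 0.15) were higher in the WT-labelled fit. Ormdl3, an inhibitor of the first step of sphingolipid synthesis, was lower (-2.05, SE 0.18), as was Degs2 (-1.85, SE 0.21), a dihydroceramide desaturase. In sphingomyelin and glycosphingolipid turnover 5 of 15 genes were higher and 4 lower, led by the sphingomyelinase gene Smpd3 (2.18, SE 0.34) and the sphingomyelin synthase gene Sgms2 (1.96, SE 0.17). Of 9 other S1P handling genes 2 were higher and 5 lower. The ceramide kinase gene Cerk (-1.88, SE 0.15) and Apom (-1.30, SE 0.29), the apolipoprotein that carries S1P in plasma, were among the lower ones. Each of these named genes had the same direction and a call in the KO-labelled fit.

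Sphk2 and Sgpp2 share exon bases with a gene on the opposite strand, and the counting used no strand and gave a shared read to both genes. Sphk2 (chr7:45709463-45718002, minus strand) overlaps Dbp, a transcription factor gene driven by the circadian clock, by 539 bases at the 3′ ends (chr7:45709665-45710203), 12.9% of the counted Sphk2 length. Dbp had a median of 34.6 CPM in the pituitary and 14.4 CPM in iWAT. If Dbp reads were spread evenly along its exons, those in the shared stretch would make up a median of 22.6% of the Sphk2 count in the pituitary and 10.8% in iWAT. Over the 10 pituitary libraries Sphk2 and Dbp log2 CPM correlated with Pearson's r = 0.865 (permutation p = 0.00102, adjusted over 4 relations 0.00204). Spearman's coefficient was 0.855 (permutation p = 0.00259), and r was 0.655 without the 2 libraries farthest from the median of Dbp. In iWAT r was 0.942 (permutation p = 0.00017, adjusted 0.00068), Spearman's coefficient was 0.855 (p = 0.00279), and r without 2 libraries was 0.904. A read in the shared stretch counts for both genes, so the counting alone tends to give some correlation. These p-values therefore do not show a relation between the genes. The part of the overlap in the Sphk2 values above was not tested.

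Sgpp2 (chr1:78310346-78420286, plus strand) shares 265 bases (chr1:78417958-78418222), 6.63% of its counted length, with Farsb, a subunit gene of phenylalanyl-tRNA synthetase. Farsb was at 44.4 to 52.6 CPM in the pituitary and 45.0 to 55.9 CPM in iWAT, and its correlation with Sgpp2 did not pass in either (r = 0.317, permutation p = 0.3744, and r = 0.060, p = 0.867). Spearman's coefficient was 0.212 in both tissues (permutation p = 0.5622 and 0.5606), and without the 2 farthest libraries r was 0.084 and 0.062. With Farsb reads spread evenly along its exons, the shared stretch would make up a median of 16.8% of the Sgpp2 count in the pituitary and 39.4% in iWAT, where the range was 26.4% to 113%. A share above the whole count means that the spread was not even in that library. The part of the overlap in the Sgpp2 values, the tissue difference included, was not tested. The other 8 members shared no exon bases with another counted gene.

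Within iWAT several members followed markers of other cell types across the 10 libraries. Of 190 member and marker list pairs in both tissues, 6 passed the adjusted threshold by Pearson's r, all in iWAT, and 0 of 100 did in the pituitary. The iWAT lists did not vary separately. WT-labelled mouse 49 and KO-labelled mouse 50 were lowest in lymph node (mean log2 CPM 4.75 and 0.659) and skeletal muscle markers. They were highest in endothelial (7.09 and 7.26) and blood markers (6.41 and 7.66). Relations with these lists are therefore not independent, and the lists cannot be told apart. Sgpp2 rose with lymph node B and T cell markers (r = 0.892, permutation p = 0.00014, adjusted 0.0114, and Spearman's coefficient = 0.903, p = 0.00076, adjusted 0.04813). Without WT-labelled mouse 49 and KO-labelled mouse 50, the libraries farthest from the median, r was 0.836. Asah2 fell as the same markers rose (r = -0.848, permutation p = 2e-05, adjusted 0.0038, and Spearman's coefficient = -0.976, p = 4e-05, adjusted 0.0076), with r = -0.916 without those libraries. In KO-labelled mouse 50, where these markers were nearly absent, Sgpp2 was lowest at 4.86 CPM and Asah2 highest at 83.4 CPM.

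Asah2 rose with endothelial markers (r = 0.929, permutation p = 0.00018, adjusted 0.0114, Spearman's coefficient = 0.818, p = 0.0061, adjusted 0.2217) and r was 0.865 without the 2 farthest libraries. Asah1, an enzyme of the lysosome, rose with macrophage markers (r = 0.901, permutation p = 0.00118, adjusted 0.0399, Spearman's coefficient = 0.806, p = 0.007, adjusted 0.2217), and r was 0.732 without WT-labelled mice 34 and 49. The relations of Asah2 with blood markers (r = 0.844, permutation p = 0.00126, adjusted 0.0399, Spearman's coefficient = 0.661, p = 0.04288) and of Sgpl1 with skeletal muscle markers (r = -0.848, permutation p = 0.00105, adjusted 0.0399, Spearman's coefficient = -0.879, p = 0.00159) weakened without WT-labelled mouse 49 and KO-labelled mouse 50. Over the other 8 libraries r was 0.490 and -0.651 (exact permutation p = 0.2142 and 0.06357). By Spearman's coefficient Asah2 also passed with adipocyte markers (Spearman's coefficient = 0.915, permutation p = 0.00054, adjusted 0.04813), where Pearson's r was 0.748 (p = 0.01187, adjusted 0.1504). Each label group holds 5 libraries, too few for a correlation within it.

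**Figure D5:**
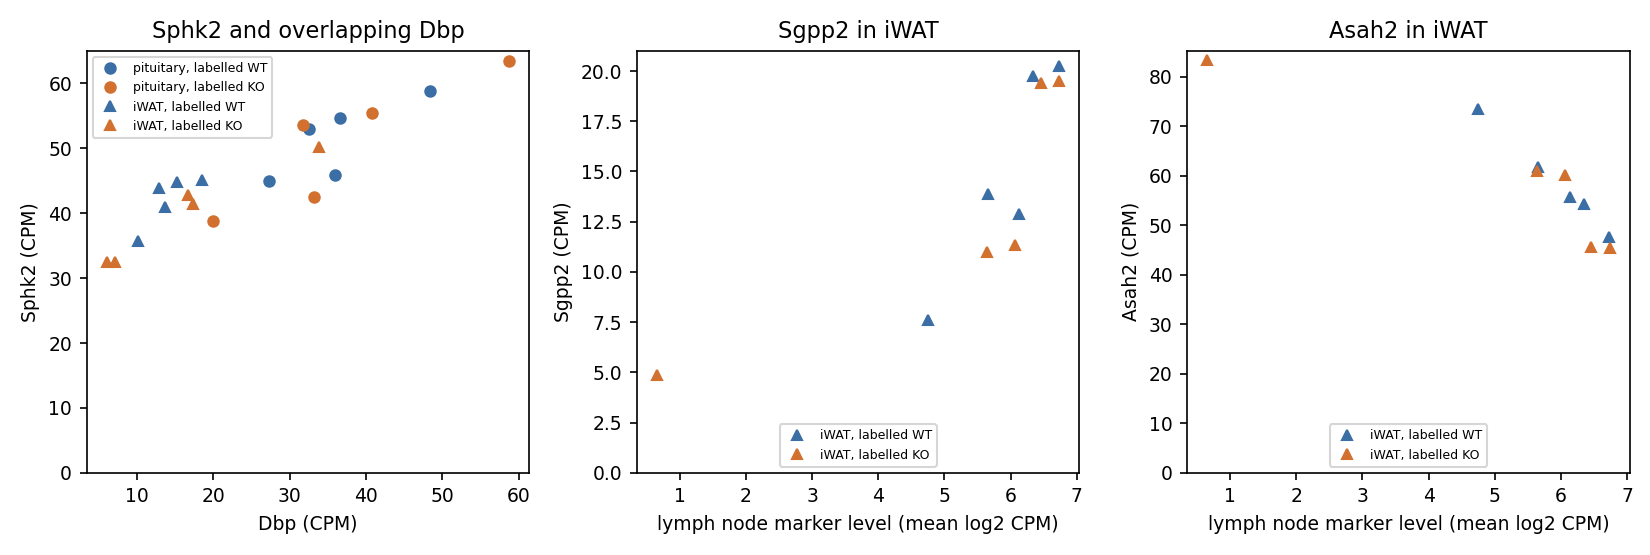
Left: Sphk2 against Dbp (both CPM) in all 20 libraries, by tissue and label. Middle and right: Sgpp2 and Asah2 (CPM) against the mean log2 CPM of lymph node B and T cell markers in the 10 iWAT libraries. Sphk2 rises with Dbp in both tissues, and KO-labelled mouse 50 is the isolated point at the far left of the other panels, with Sgpp2 at 4.86 and Asah2 at 83.4 CPM.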

How the data were processed

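Single-end poly(A) libraries of 20 samples (5 per tissue and genotype label) were analysed. The deposited values are raw counts, whole numbers per gene that the authors obtained with featureCounts over mm10 exons from UCSC, without normalization. Per the file headers only primary alignments were counted, a read over several genes counted for each, and no strand option was set. The submitters' processing notes name STAR 2.4.0, featureCounts 1.4.4, mm10 and GRCm38. edgeR 4.0.16 in R 4.3.3 (filterByExpr, TMM, robust quasi-likelihood test, Benjamini-Hochberg over all genes tested, threshold 0.05) was fitted per tissue and per genotype label, and over 20 libraries for the interaction. Standard errors are the log2 fold change divided by the root of the F statistic. CPM uses TMM over all 20 libraries, and TPM the deposited gene lengths. Permutation tests were two-sided with 1e+05 resamples, adjusted over all pairs. Marker levels are the mean log2 CPM (prior count 2). Every pair of libraries of a group differed beyond sampling noise (smallest reduced chi-square 4.70). The members and lists were chosen with earlier results of these data known. Named beside the members were Klf14, the remaining S1P receptors, the genes overlapping members (added after seeing the data) and pathway genes: those called between labels, and per list the 2 with the largest change in each direction called in both tissue fits. Not all are given, and 1 pathway list is not reported here. Alternatives were RLE scaling, no filter, at least 5 libraries above 1 CPM, DESeq2 1.42.0, age in the model, only the 21-week mice, 1 fit over all 20 libraries, a replicate block, a longer GC box and leaving out each mouse. The fits were tested on simulated data with known changes in well-counted genes. Of 1.5-fold changes the pituitary fit called 87% and the iWAT fit 7%. Of 2-fold changes they called 95% and 44%, so many changes of this size in iWAT would be missed. Among 194 simulated calls in the pituitary 12 were unchanged genes, and among 53 in iWAT 2 were. Smaller changes, such as that of Sgpl1 in the pituitary, and changes in genes with few counts, such as Sphk1 there, were not simulated. No promoter entry was matched for Asah1.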

Additional observations from a re-analysis of the deposited data

Results flagged for a closer look

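In 52 groups of 5 libraries examined (13 genes of the family in 4 groups), 3 held a library far from the other 4, where chance gives about 1 in 20, or 2.6. Spns2 was at 5.93 CPM in the pituitary of WT-labelled mouse 48, and the other 4 libraries of that group lay between 3.02 and 3.84 CPM. Spns2 was also at 74.0 CPM in the iWAT of KO-labelled mouse 31, against 44.1 to 50.4 CPM in the rest of the group. S1pr5 was at 1.43 CPM in the iWAT of KO-labelled mouse 50, the library that stood apart in its lymph node markers, against 0.496 to 0.730 CPM in the rest.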

How the results depend on the processing

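In the pituitary label comparison the count of members called was 1 with RLE scaling, no filter, the 1 CPM filter and DESeq2, and 0 with age as a covariate, in mice of 21 weeks only and in 1 fit over all 20 libraries. Leaving out each mouse gave 0 to 1. All genes called numbered 90, and 288 with DESeq2, 44 with age, 5 at 21 weeks, 1 in 1 fit over all 20 libraries and 50 to 112 without each mouse. For the interaction, DESeq2 and age each called 1 gene, no member. Counting the longer GC box GGGGCGGGG in place of GGGCGG left 1 of 5 members with a match. Without the 2 farthest libraries, r was -0.651 for Sgpl1 with skeletal muscle markers and 0.490 for Asah2 with blood markers. The cause of these changes was not tested. Member counts between tissues stayed at 8 to 9 (labelled WT) and 6 to 8 (labelled KO).

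Same-numbered libraries of the 2 tissues showed little shared deviation (r from -0.059 to 0.096, and 4 of 10 correlated best with their own number). This cannot decide whether a number is an animal, since 2 tissues of the same animal need not deviate together. The number is used here only to name a library. With the replicate block the tissue fits called 9 members (labelled WT) and 8 (labelled KO), and in the interaction S1pr2 turned to -0.017. It changed no member's call. No block could be fitted between labels, which share no number.

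Members that did not pass turned sign as follows (log2 fold change). In the pituitary with age, Sphk2 was 0.036. At 21 weeks, Sphk1 was -0.31, Sphk2 0.031, Sgpp1 0.0073, S1pr3 0.020 and Asah2 -0.0065. Without each mouse the ranges were -0.11 to 0.21 for Sphk1, -0.12 to 0.056 for Sphk2, -0.023 to 0.17 for S1pr2 and -0.0074 to 0.027 for Asah2. In iWAT with age, S1pr2 was -0.14 and S1pr3 -0.034. At 21 weeks, Sgpl1 was -0.052, Sgpp1 0.10, Sgpp2 0.19 and Asah2 -0.16. Without each mouse the ranges were -0.36 to 0.061 for Sphk1, -0.23 to 0.16 for Sgpl1, -0.082 to 0.029 for Sgpp1, -0.35 to 0.043 for Sgpp2, -0.073 to 0.13 for Spns2, -0.044 to 0.26 for S1pr2, -0.063 to 0.11 for S1pr3 and -0.14 to 0.10 for Asah2. In the interaction, Asah2 was -0.0031 with no filter and S1pr2 -0.14 with age. Without each mouse the ranges were -0.10 to 0.029 for Sphk2, -0.29 to 0.097 for Sgpp2, -0.064 to 0.20 for S1pr2 and -0.15 to 0.13 for Asah2. Between tissues in the KO-labelled fit Sgpp1 ranged from -0.014 to 0.095. Counting error limits Sphk1 in the pituitary, at 7 to 17 counts, most among the members.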
